A study of Drosophila melanogaster with 3 samples.

Results

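Transcripts of adult Drosophila melanogaster heads that expressed dominant-negative protein kinase A (PKA-DN) in the mushroom bodies were set against those of control heads. The members are the arrays titled for these genotypes, 2 of the 3 arrays of the series, with 1 array each and no replicates. Genes were compared by the log2 ratio of PKA-DN over control, taken from the brightest probe set of each gene that a single symbol names, where the mean signal lay in the upper 50%. That left 5991 of 11982 named genes. With 1 array a group there is no test and no replicate error, so every ratio includes any difference between these flies, extractions and hybridizations, and "higher" and "lower" below describe these arrays only.

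Cyclic AMP, made by adenylyl cyclases such as rutabaga and broken down by phosphodiesterases such as dunce, releases the catalytic subunits of PKA from its regulatory subunits. The kinase then phosphorylates many proteins, among them the transcription factor CREB and its coactivators. In flies this pathway is best known from the mushroom bodies, the paired brain centres of olfactory learning and memory, where dunce and rutabaga act.

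Every genotype carried p247-Gal4, a driver of the mushroom bodies, and tub-gal80[ts], a temperature-sensitive repressor of Gal4 under a tubulin promoter. The control (p247-Gal4,tub-gal80[ts]/+) carried no UAS transgene, and the other genotype added UAS-PKA-DN. The array titled PKA-CA, from flies with UAS-PKA-CA (a constitutively active form), is given beside them for each gene; its ratio to the control rests on the same control array. Flies were kept at 18 °C, moved to 32 °C for 12 to 16 h, and sampled as whole heads of adults aged 4 to 6 days. In the design text of the submission, raised and lowered activity are matched to the transgenes in the reverse order of their names; PKA-DN is taken here as the form that lowers activity. The sources used here do not say how many flies were pooled, of which sex, or which coding sequence the transgene carries. The mushroom bodies make up little of the head, so most RNA came from cells in which the driver is not known to act. In whole heads, fewer cells of a type and less RNA per cell cannot be told apart.

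The deposited values are MAS5 signals, a linear probe-set intensity, with a trimmed mean of 500.01 on every array. Of 99 negative-control probe sets, the highest read 77.0 on the control array, 77.8 on PKA-DN and 70.9 on PKA-CA, and 64.4% of named genes lay above that level on the control array. In what follows, 3 signals given for a gene are those of control, PKA-DN and PKA-CA in that order, and a log2 ratio is PKA-DN over control. The label of head tissue was checked by markers. The photoreceptor channel gene trp read 15510, 14587 and 15032, the neuronal vesicle gene nSyb 2838, 2793 and 2879, and the glial transcription factor gene repo 1458, 1347 and 1506. Markers of gut (Jon25Bi), male reproductive tract (Acp26Aa, Mst87F) and ovary (osk, Cp36) were at or below the highest negative control on both compared arrays. Markers of the antenna (Orco, lush), a part of the head, were at or below it too. They add nothing to the check of the label, and whether antennal RNA was present was not tested. ninaC, norpA, Syt1, Eaat1, Mhc, Act57B, to, Obp83a, Amy-p, Acp70A and nos were not analysed here.

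Most genes differed little between the arrays. The median log2 ratio of the 5991 genes was -0.0095, 48.3% of them lay above the control, the standard deviation over genes was 0.252, and the 5th and 95th percentiles were -0.39 and 0.36. In PKA-DN 19 genes (0.317%) were higher by 2-fold or more and 17 (0.284%) lower by 2-fold or more. By 1.5-fold or more 89 (1.49%) were higher and 86 (1.44%) lower. These shares, with 51.7% of genes below the control, are the background for every list count below. By signal, the dimmest 25% of the compared genes held 13 of the 36 genes past 2-fold and the brightest 25% held 10. Negative-control probe sets, which should carry no signal, had log2 ratios with a standard deviation of 1.91, and 52 of 99 (52.5%) passed 2-fold, so ratios near their level carry no order. A gene measured by 2 bright probe sets gives a further view of the precision. In 304 such genes the median absolute difference between the 2 log2 ratios was 0.177, and the ratios had the same sign in 185 (60.9%). Among the 8 whose brighter probe set passed 1.5-fold, the second had the same sign in 6 and passed 1.5-fold the same way in 3. Averaging over all probe sets of a gene turned the sign for Arc1 and Mlp60A, whose other probe sets lay above the highest negative control on both arrays. It also did so for Dop2R, Glut1, Octbeta1R, fru, kay, nej, toy, trol and wb. Each of these averages takes in at least 1 probe set at or below that level, so it carries no order. The sign for Msp300 turned as well, and 4 of its 5 other probe sets lay above that level. Genes with ratios close to 0 are apart from this.

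**Figure D1:**
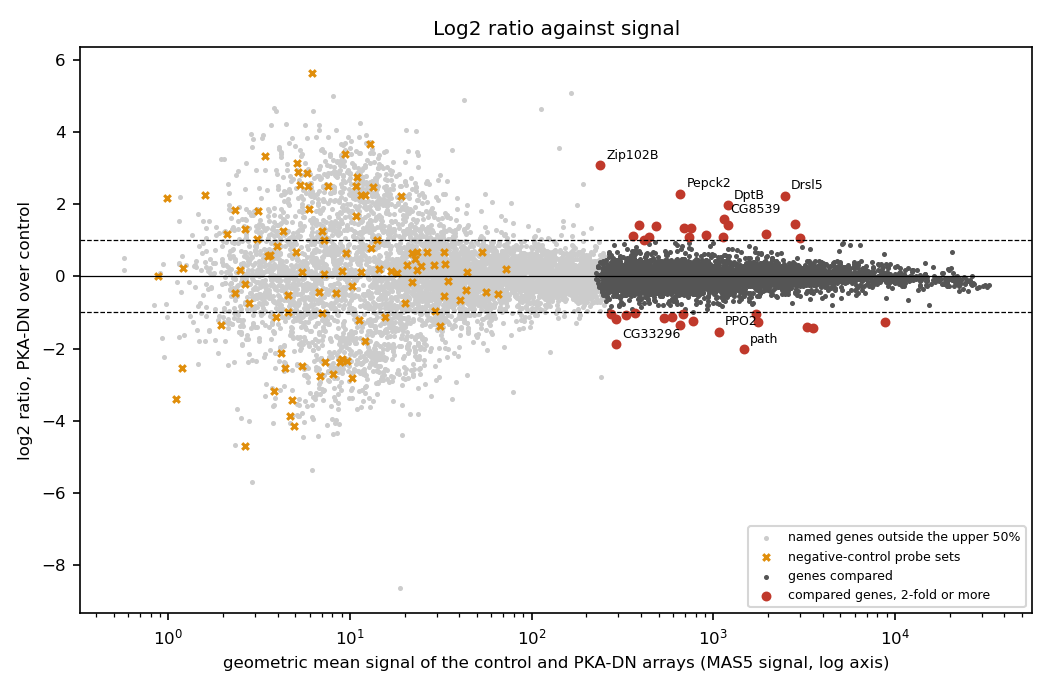
Log2 ratio of PKA-DN over control against the geometric mean signal of the 2 arrays (log axis), 1 point for each named gene or negative-control probe set; dashed lines mark 2-fold. Negative controls scatter widely at low signal, whereas the 36 compared genes past 2-fold (red) stand outside a narrow band.

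The highest ratios belonged to a transporter, a metabolic enzyme and immune peptides. Zip102B, of the ZIP family of zinc transporters, read 81.6, 694 and 654, a log2 ratio of 3.09; its control signal was close to the highest negative control. Pepck2, a phosphoenolpyruvate carboxykinase, read 297, 1452 and 1310.0 (2.29). On both genes the PKA-CA array was also far above the control. Drsl5, a Drosomycin-like peptide gene, read 1140.3, 5383 and 1044 (2.24), and Diptericin B (DptB) read 606, 2384 and 1114 (1.98). For Drsl5 only the PKA-DN array was high.

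Other genes among the 15 highest serve detoxification and amino acid breakdown or have no assigned name. The carboxylesterase gene alpha-Est2 read 736, 1982 and 1318 (1.43), and the cytochrome P450 gene Cyp6a8 read 435, 1096 and 323 (1.33). LKRSDH, the bifunctional enzyme of lysine breakdown, read 303, 646 and 416 (1.09). PKA-CA lay between the other arrays for alpha-Est2 and LKRSDH and below both for Cyp6a8. CG8539 read 658, 1978 and 1253 (1.59), CG9662 299, 789 and 325 (1.40), CG3348 469.6, 1198 and 775 (1.35), CG8012 614, 1351 and 969 (1.14) and CG42324 246, 533 and 276 (1.12). In all 5 the PKA-DN array was the highest of the 3.

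The lowest ratio was that of pathetic (path), an amino acid transporter, with 2952, 736 and 3507 (-2.0), and here PKA-CA was above the control. CG33296 read 558, 152 and 303 (-1.87). The prophenol oxidase genes PPO2 and PPO1 were also among the 6 lowest and are described with the blood cell genes. Elovl7, of the family of enzymes that elongate fatty acids, read 1189.6, 506 and 1071 (-1.23), and the mucin-type glycosyltransferase gene Pgant4 read 438, 194 and 191 (-1.17). For Pgant4 both PKA arrays were low, for Elovl7 only PKA-DN. DJ-1alpha, of a family known for protection from oxidative stress, read 883, 402 and 640.5 (-1.14). Amphiphysin (Amph), a membrane-curving protein, read 2473, 1201 and 2779 (-1.04), and Reps, related to proteins of endocytosis, read 475, 228 and 459.5 (-1.06). In the last pair PKA-DN again stood apart, with PKA-CA within 0.17 of the control on the log2 scale.

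Further down the lower end, CG3308 read 5776, 2140.5 and 4718 (-1.43), CG9512 5331, 2009 and 3575 (-1.41), CG5676 2727, 1138 and 1402 (-1.26), CG34227 13633, 5710.4 and 5019.5 (-1.26) and CG34456 985, 475 and 225 (-1.05). In CG34227 and CG34456 the PKA-CA signal was lower still. Just inside the 2-fold line were CG44838 at -1.03 and Lime, named for linking immunity and metabolism, at -1.001, and just outside it was CG17107 at -0.996. On the higher side 2mit was the last inside it.

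A few genes next in order, beyond the 15 at each end, were picked for their known roles after their values were seen. Rab2, a GTPase of transport between endoplasmic reticulum and Golgi, read 445, 841 and 452 (0.92), and argininosuccinate synthase (Ass) 533, 1003 and 722 (0.91). CG3513 read 778, 1649 and 1029 (1.08). On the lower side Mgat2, an enzyme of N-glycan maturation, read 1482, 834 and 1879.8 (-0.83), the C-type lectin gene lectin-24Db 369.9, 193 and 378 (-0.94), and regucalcin 5935, 3396 and 5881 (-0.81) with -1.22 in a dimmer probe set.

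**Figure D2:**
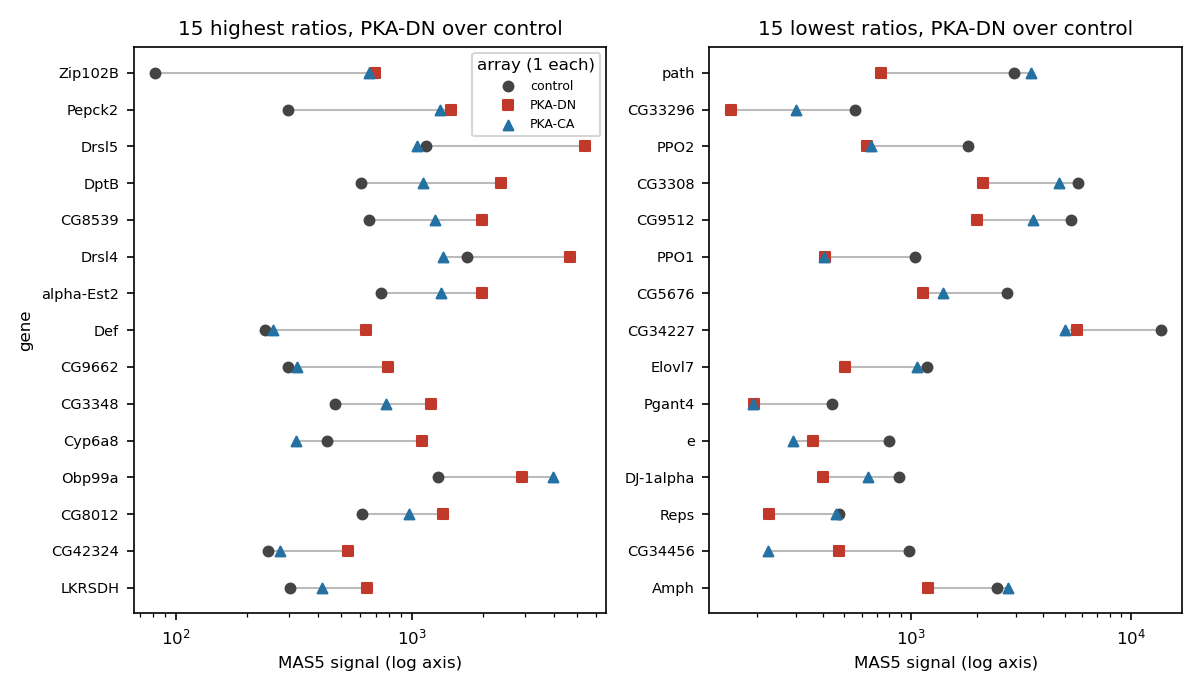
Signals on the control (circles), PKA-DN (squares) and PKA-CA (triangles) arrays for the 15 genes with the highest and the 15 with the lowest ratio of PKA-DN over control, 1 array each, on log axes. The PKA-CA signal sits beside PKA-DN for genes such as Zip102B and PPO2 and beside the control for Drsl5, Elovl7 and Reps.

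Antimicrobial peptides are secreted mainly by the fat body on activation of the Toll and Imd pathways. Several of their genes stood far above the control in PKA-DN, and the rest were near the control. Of 16 compared, 11 lay above the control, 7 of them by 1.5-fold or more and 4 by 2-fold or more, and none was 1.5-fold lower. Over all compared genes 48.3% lay above the control, 1.49% by 1.5-fold and 0.317% by 2-fold. The median was 0.33, with values of 0.32 to 0.34 under the alternatives. Earlier results of these data had shown several of these genes already. Besides Drsl5 and DptB, Drsl4 read 1699, 4653 and 1344 (1.45), Defensin (Def) 239, 636 and 258 (1.41), Drosomycin (Drs) 3786, 7144 and 3491 (0.92) and Metchnikowin (Mtk) 3867, 6297 and 3969 (0.70). In each of these 4 the PKA-CA signal was close to the control or below it.

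The Bomanins are short peptides induced through Toll, and they were uneven. BomS4 read 4709, 8650.0 and 4502 (0.88), BomS5 7288, 9126 and 5168 (0.32) and BomT2 7902, 9945 and 7408 (0.33). BomS2 at 0.07, BomS6 at -0.04, BomT3 at -0.13 and BomBc3 at -0.14 were near the control, as was Listericin at -0.12. Close relatives among these short genes may share transcript sequence, and whether a probe set reads a relative was not tested.

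Genes of the pathways upstream were close to the control. Of 14 Toll pathway genes 10 were above the control, with a median of 0.08 (0.05 to 0.09 under the alternatives) and none past 1.5-fold. The highest was the adaptor Myd88 with 458, 579 and 472 (0.34), followed by the serine protease Hayan at 0.24, and the lowest was the ligand spatzle (spz) with 837, 739 and 979.5 (-0.18). The inhibitor cactus (cact), itself a known Toll target, stood at -0.03 and the factor dorsal (dl) at -0.03. Of 11 Imd genes 6 were below the control, none past 1.5-fold, and their median of -0.02 was 0.0043 in the upper 25% by signal. Here the factor Relish (Rel) read 2476, 2356 and 1958 (-0.07), key, a subunit of the IKK complex, stood at 0.24, and the recognition genes PGRP-SB1 and PGRP-LE at -0.02 and 0.16. Stat92E, the factor of the JAK/STAT pathway, stood at 0.10 and its stress-induced target TotC at 0.16. Serpins, which inhibit the proteases of these cascades, had a median of 0.05 over 11 genes, which was -0.03 with no signal filter, and were led by Spn27A with 993, 1335 and 969 (0.43) and Spn88Eb with 1368, 1793 and 1731 (0.39). Spn27A inhibits melanization.

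Crystal cells are blood cells that store the prophenol oxidases of melanization. PPO2 read 1824, 631 and 663 (-1.53) and PPO1 1041, 409 and 405 (-1.35), so both PKA arrays stood well below the control. The crystal cell transcription factor lozenge (lz), which is used in the eye as well, read 240.1, 257 and 287 (0.10). Of 10 crystal cell and melanization genes only the 2 oxidases passed 1.5-fold, where 1.44% of all genes were lower by as much. The list median was -0.03 (-0.09 to -0.01 under the alternatives).

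Plasmatocytes, the phagocytes of fly blood, had lower marker signals in PKA-DN. Of 10 marker genes 8 were below the control, 2 by 1.5-fold or more (51.7% and 1.44% over all genes), with a median of -0.34 (-0.36 to -0.27 under the alternatives) against -0.0095 over all genes. NimC1, a phagocytosis receptor, read 826, 485 and 707 (-0.77), the scavenger receptor gene Sr-CI 478, 307 and 485 (-0.64) and Hemolectin (Hml), a clotting protein, 885, 676 and 839 (-0.39). In all 3 the PKA-CA signal was closer to the control. The phagocytosis receptor gene eater, outside the upper 50%, read 207, 93.6 and 152. Pxn and srp stood at -0.34 and -0.24, while croquemort (crq) and Glutactin (Glt) were above the control at 0.12 and 0.09. The summed signal of the 10 markers was 18498 on the control array, 17305 on PKA-DN and 19461 on PKA-CA, none was at 0, and their part in the immune gene differences was not tested.

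Basement membranes, made largely by blood cells and fat body, overlap with that list in the collagen IV genes and Pxn and Tig. Of 12 genes 9 were below the control, against 51.7% of all genes, with a median of -0.27. The perlecan gene trol read 895, 662 and 977 (-0.43), the collagen IV genes viking (vkg) 1459, 1133 and 1842 (-0.36) and Col4a1 1309, 1029 and 1574 (-0.35), and LanA, a laminin chain, 775, 625 and 925 (-0.31). For these 4 the PKA-CA signal was above the control. The laminin genes LanB2 and wb were above it in PKA-DN at 0.30 and 0.40, and Nidogen (Ndg) read 293, 478 and 491 (0.71). Of these 12 genes 11 fall among the 25% of compared genes with the longest gene span, whose median ratio was -0.06.

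**Figure D3:**
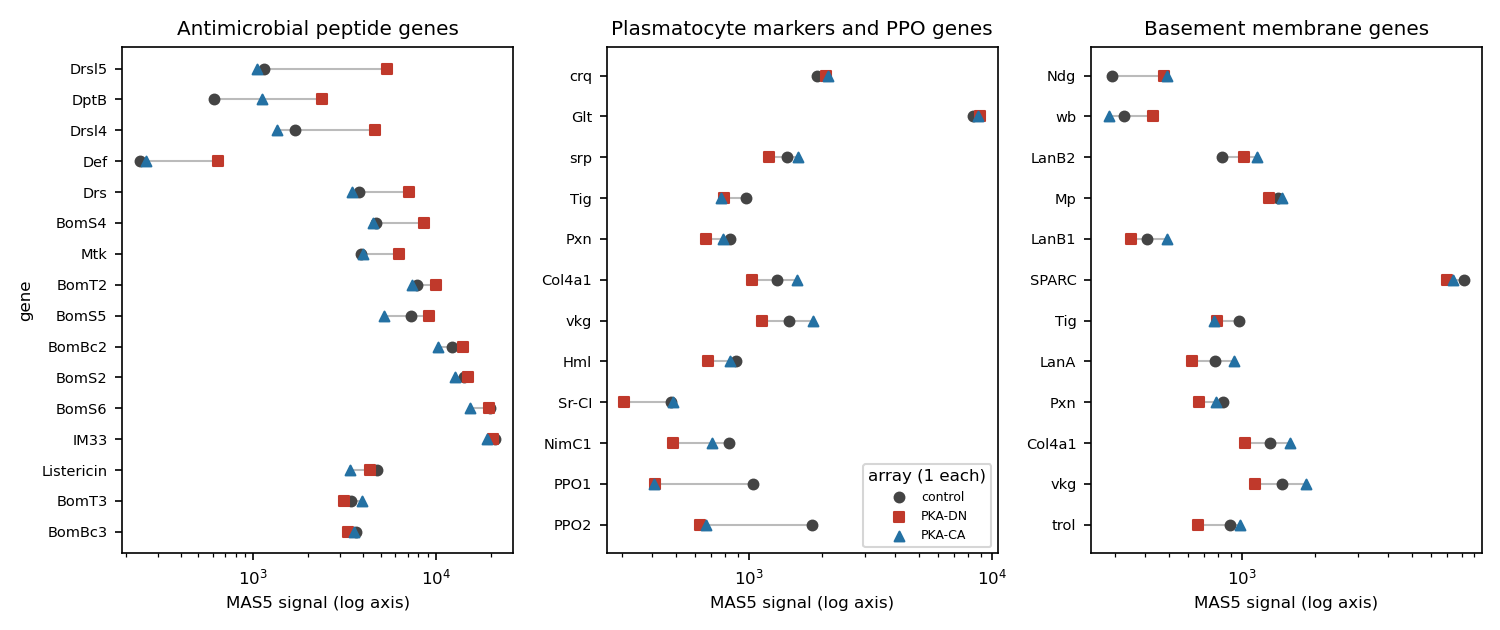
Signals on the 3 arrays (control circles, PKA-DN squares, PKA-CA triangles, 1 array each, log axes) for antimicrobial peptide genes, plasmatocyte markers with PPO1 and PPO2, and basement membrane genes, ordered by the ratio of PKA-DN over control. PKA-DN is the highest array for Drsl5, DptB, Drsl4, Def, Drs, BomS4 and Mtk, and the lowest for NimC1, Sr-CI and trol.

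Cytochrome P450 enzymes oxidise hormones, lipids and toxins. Of 44 compared, 19 were above the control and 25 below, with 4 past 1.5-fold higher, 2 past 1.5-fold lower, against 1.49% and 1.44% of all genes, and a median of -0.05 (-0.05 to -0.03 under the alternatives). After Cyp6a8, Cyp9c1 read 507, 1070.1 and 343 (1.08), Cyp4d8 491, 804 and 399.6 (0.71) and Cyp4ac2 304, 495 and 199 (0.70). In these 3 and in Cyp6a8 the PKA-CA signal was below the control. At the other end Cyp12a5 read 365, 207 and 269 (-0.82) and Cyp4g15, a P450 of the nervous system, 1394, 819.6 and 837 (-0.77). Cyp4g1, the oenocyte enzyme of cuticular hydrocarbon synthesis, read 766, 541 and 76 (-0.50), and all 5 compared genes of the oenocyte and hydrocarbon list were below the control, with a median of -0.22. The others were the elongase gene bond at -0.10, the nuclear receptor gene svp at -0.22 and the desaturase gene Desat1 at -0.04, and Desat1 turned to 0.06 under quantile normalization.

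Among conjugating enzymes, UDP-glycosyltransferases lay mostly above the control, and glutathione transferases had a median close to it. UDP-glycosyltransferases, which attach sugars to small molecules, were above the control in 10 of 13, against 48.3% of all genes. Their median of 0.35 was 0.15 in the upper 25% by signal. Ugt317A1 read 296, 448 and 272 (0.60) and alone passed 1.5-fold; Ugt301D1 read 913, 1318 and 1231 (0.53) and Ugt35C1 1247, 1788 and 1817 (0.52). Ugt37A3 was the lowest at -0.43, before Ugt49B1 at -0.10 and Ugt316A1 at -0.03. Glutathione transferases were below the control in 15 of 25, against 51.7% of all genes. Their median was -0.09 (-0.11 to -0.05 under the alternatives). GstD9 read 1939.8, 1287 and 1077 (-0.59) and GstD1 15267, 11759 and 12481 (-0.38), and GstD3 stood at -0.31, whereas GstE3, GstE14 and GstE7 stood at 0.35, 0.28 and 0.28. Carboxylesterases other than alpha-Est2 lay between -0.45 (Ace, acetylcholinesterase) and 0.23 (clt), and the median of 10 was -0.02, or 0.02 in the upper 25% by signal.

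Among antioxidant enzymes 7 of 12 were below the control. Catalase (Cat), which breaks down hydrogen peroxide, read 6431, 4706 and 5563 (-0.45), and the superoxide dismutase genes Sod3 and Sod2 stood at -0.41 and -0.26. A second bright probe set of Sod3 had -0.06. The peroxiredoxin gene Prx6c was the exception past 1.5-fold, with 281, 498 and 758 (0.82). Carbonic anhydrases, which interconvert carbon dioxide and bicarbonate, were above the control in all 6 compared, against 48.3% of all genes. Their median of 0.21 was 0.09 with no signal filter. CAH5 read 380.2, 593 and 122 (0.64) and CAH2 1800.3, 2779 and 2269.8 (0.63). CAH5 was far below the control on the PKA-CA array. CAH3 and CAH1 stood at 0.27 and 0.16, CAH7 and CAH9 at 0.09 and 0.03. Metal homeostasis genes other than Zip102B lay between -0.41 (Zip48C) and 0.25 (ZnT63C), and the metallothionein gene MtnD read 303, 341 and 729.9 (0.17).

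On a list of 20 amino acid transporter genes, which also holds the ion cotransporter gene kcc, 14 lay above the control, against 48.3% of all genes. The median was 0.12, and path was the lowest. By 1.5-fold or more 2 were lower, against 1.44% of all genes. Besides path, List was 1.5-fold lower with 594, 377 and 421 (-0.66), and its second bright probe set had -0.62. The transporter gene CG7888 stood at -0.45. JhI-21 led the higher members with 2411, 3437 and 2619.8 (0.51), followed by genderblind (gb) at 0.31 and CG4991 at 0.30. The arginine transporter gene slif stood at 0.14.

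Central carbon metabolism hardly differed apart from Pepck2. Pepck1, its paralogue, read 26504, 20961 and 20763 (-0.34) and fructose-bisphosphatase (fbp) 4355, 3537 and 4278 (-0.30), both lower. Of 11 glycolysis genes 9 were below the control, with a median of -0.07 and extremes of -0.16 (Pgi) and 0.12 (Pglym78). Of 14 citrate cycle genes 13 were below it, with a median of -0.05, and the lowest was ScsbetaG with 725, 585 and 469 (-0.31). Over all genes 51.7% were below the control. None of the 25 glycolysis and citrate cycle genes passed 1.5-fold. Of 11 trehalose and glycogen genes 7 were above the control and 4 below, none past 1.5-fold, and the median of 0.03 was -0.0011 with no signal filter. The highest members were the branching enzyme AGBE at 1002, 1459.6 and 1111 (0.54), glycogen phosphorylase (Glyp) at 0.30, glycogen synthase (Glys) at 0.24 and Pgm1 at 0.23. The lowest were the glucose transporter gene Glut1 at -0.44, the trehalose synthase gene Tps1 at -0.04 and Hex-C, a hexokinase gene, at -0.09.

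Of 12 genes on the fatty acid synthesis and elongation list Elovl7 alone passed 1.5-fold. The list also holds KFase, which is not a gene of fatty acid synthesis. Its median of -0.0020 turned positive, up to 0.05, under quantile normalization, cyclic loess and centring. Fatty acid synthase (FASN1) read 18783, 21059 and 17202 (0.17). Fatty acid oxidation genes had a median of -0.14 with 7 of 12 below the control, from -0.41 (Acox57D-d) to 0.40 (Acox57D-p), neighbouring peroxisomal oxidases of opposite sign. The storage protein gene Lsp2 of the fat body read 16269, 25979.9 and 19498 (0.68), while apolipophorin (apolpp) read 29197, 25278 and 22162 (-0.21).

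Nutrient signalling genes showed small differences, with 11 of 19 above the control, a median of 0.03 (0.01 to 0.09 under the alternatives) and none past 1.5-fold. foxo, the transcription factor restrained by insulin, read 583, 809.6 and 611 (0.47), S6k 934, 1228 and 1075 (0.40) and Akt 707, 901 and 953 (0.35). Sestrin (Sesn), an inhibitor of TOR signalling, read 1983, 1322 and 1722 (-0.58), and the insulin receptor gene InR stood at -0.23. Ecdysone and juvenile hormone genes were below the control in 9 of 10, against 51.7% of all genes, with a median of -0.12. Kr-h1, the main target of juvenile hormone, read 1179, 961 and 1365 (-0.29), ftz-f1 stood at -0.29, and usp was above the control at 0.10.

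**Figure D4:**
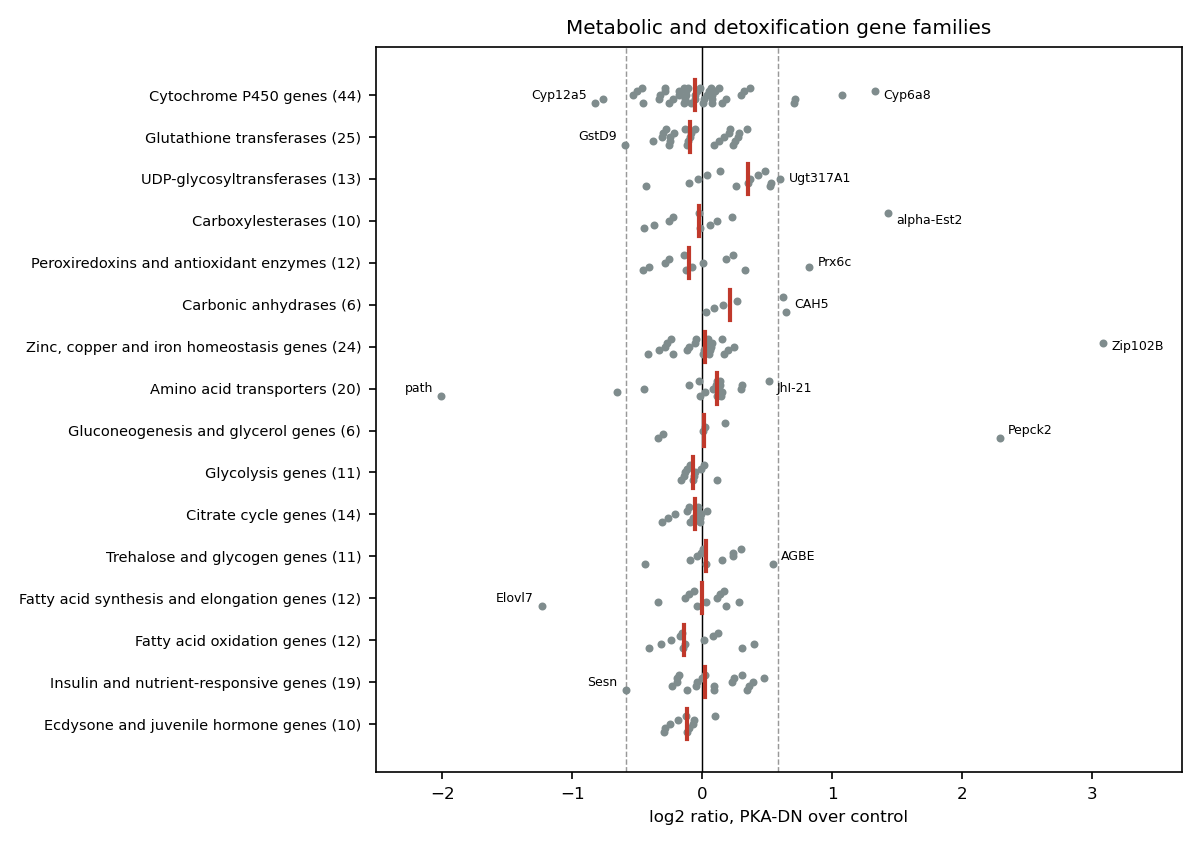
Log2 ratios of PKA-DN over control for metabolic and detoxification families, with 1 grey point per compared gene (number in brackets), the family median as a red bar and dashed lines at 1.5-fold; points are offset vertically for legibility. Most families centre near 0, with single genes such as Zip102B, Pepck2, path and Elovl7 far from their families.

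Of 9 genes of PKA subunits and anchoring proteins 6 were compared, and none of the 6 passed 1.5-fold; the subunit genes Pka-C1, Pka-C2 and Pka-R2 were not analysed here. The regulatory subunit gene Pka-R1 read 782, 799 and 1033 (0.03) and Pka-C3, a catalytic subunit gene, 1631, 1548 and 1615 (-0.08). Anchoring proteins ranged from rugose (rg) with 1203, 854 and 1219.9 (-0.49) through Akap200 with 3494, 3968 and 2591 (0.18) to spoon with 2053, 2476 and 2630.3 (0.27). The sixth, nvy, stood at 0.03. The median was 0.03, or -0.02 with a gene's probe sets averaged. Of 9 genes that make or break down cyclic AMP 7 were below the control, with a median of -0.09. The phosphodiesterase gene Pde1c read 1129, 777 and 1217 (-0.54), while dunce (dnc) stood at -0.06 and rutabaga (rut) at 0.03.

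Transcriptional partners of the pathway were also near the control. The CREB list of 8 genes split evenly, and its median of -0.0087 turned to 0.01 under quantile normalization. nejire (nej), the CREB-binding coactivator, was the lowest with 575, 389.9 and 459 (-0.56), and the kinase gene Sik3 the highest with 964, 1155 and 1081 (0.26). The coactivator gene Crtc stood at -0.03. Of 11 genes on a list of activity-regulated genes, 2 were 1.5-fold higher, against 1.49% of all genes. They were CG13868 with 367, 591 and 574 (0.69) and Prx6c. The list median of 0.13 was -0.09 when all probe sets were averaged. Arc1 stood at 0.13, with -0.36 in its other bright probe set, kayak (kay, the fly Fos) at -0.12 and Jra (the fly Jun) at 0.02.

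Genes enriched in the mushroom bodies, where the transgene is driven, were close to the control. Of 12 compared, 6 were above it and 6 below, none past 1.5-fold, and the median of -0.02 had no stable sign. It was 0.02 under quantile normalization, 0.01 with cyclic loess, 0.03 with no signal filter and with both arrays above their highest negative control, and -0.12 in the upper 25% by signal. The range ran from trio with 2253, 1832 and 2756 (-0.30) to the integrin gene scab (scb) with 272, 315 and 381 (0.21). Between them lay eyeless (ey) at -0.16, dachshund (dac) at -0.06, toy at 0.16 and drk at 0.17. All 12 are among the 25% of genes with the longest span.

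Pan-neuronal and transmitter genes were more often below the control than above it. Of 14 pan-neuronal genes 10 were lower, against 51.7% of all genes, with a median of -0.08 and none past 1.5-fold. The RNA-binding protein gene elav read 619, 421 and 637 (-0.56), its relative fne 4914, 3907 and 5378 (-0.33), Appl, the fly amyloid precursor protein, 4012, 2981 and 3746 (-0.43) and the active zone gene bruchpilot (brp) 511, 408 and 524 (-0.33). Vesicle fusion genes were nearer the control, with Snap25 at 0.04, nSyb at -0.02 and Rop at 0.06.

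Acetylcholine is the main excitatory transmitter of the fly brain. Of 12 genes of its system 10 were below the control, with a median of -0.22, or -0.14 at the nearest to 0 of the alternatives, and none passed 1.5-fold. Choline acetyltransferase (ChAT), which makes the transmitter, read 2485, 1778 and 2168 (-0.48), and acetylcholinesterase (Ace), which degrades it, 1518, 1113 and 1339 (-0.45). The vesicular transporter VAChT stood at -0.04. Receptor subunits ran from nAChRalpha2 with 608, 443 and 525 (-0.46) and nAChRalpha3 with 469, 355 and 628 (-0.40) to nAChRalpha5 with 1222, 1341 and 1418 (0.13). In nAChRalpha3 the PKA-CA signal was above the control.

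Other transmitter systems were mixed. Among GABA, glutamate and histamine genes 10 of 14 were lower and the median of -0.10 was 0.04 in the upper 25% by signal. The histamine-gated channel gene ort, which receives photoreceptor input, read 630.0, 434 and 429 (-0.54), and the GABA transporter gene Gat 864, 608 and 596 (-0.51). The synthetic enzymes were above the control, with Gad1 (GABA) at 5478, 6378 and 6072 (0.22) and Hdc (histamine) at 1532, 1918 and 2118 (0.32). Among biogenic amine genes 9 of 13 were lower, with a median of -0.06 (-0.08 to -0.02 under the alternatives). The lowest was ebony (e) at -1.15, described with the glial genes, which alone of the 13 passed 1.5-fold. Dop2R and Octbeta1R, receptors of dopamine and octopamine, stood at -0.40 and -0.36, and 5-HT2A, a serotonin receptor, at 0.40. Of 20 ion channel genes 13 were lower, with a median of -0.09; the sodium channel gene para read 791, 486 and 506 (-0.70) and alone of the 20 passed 1.5-fold, and the potassium channel genes Irk3 and slo stood at -0.48 and -0.38. On the higher side the potassium channel gene Elk stood at 0.40. Outside the upper 50% by signal, but above the highest negative control on every array, the potassium channel gene sand read 635, 91.4 and 157 (-2.80) and the calcium channel gene Ca-alpha1T 221, 103 and 160.2 (-1.10).

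Cell-surface recognition genes were also below the control in most cases, against 51.7% of all compared genes. Of 14 dpr and DIP genes, partners in synaptic matching, 10 were lower, with a median of -0.17 (-0.06 with a gene's probe sets averaged) and dpr11 at 309, 214 and 294 (-0.53). Of 27 axon guidance and adhesion genes 18 were lower, with a median of -0.05 (-0.05 to -0.01 under the alternatives) and 1 member past 1.5-fold each way. The phosphatase receptor gene Ptp10D read 329, 214 and 313 (-0.62), but its dimmer probe set had 0.11. The Slit receptor gene robo1 read 287, 468 and 662 (0.70), high on both PKA arrays.

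The neuronal lists are rich in long genes. Of the genes named above as compared, 11 of 14 pan-neuronal, 8 of 12 acetylcholine, 15 of 20 ion channel and 26 of 27 guidance genes lie among the 25% of genes with the longest span, where the median ratio over all genes was -0.06, against 0.02 in the 25% with the shortest. On the PKA-CA array the same bins had medians of 0.07 and -0.05 over control. The ratio of 3' to 5' signal, a measure of RNA integrity, was 1.70, 2.05 and 2.0 for GAPDH, 1.79, 2.29 and 1.70 for actin, and 2.51, 2.33 and 3.01 for eIF-4a on the 3 arrays. The part of gene span and RNA integrity in these differences was not tested.

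Neuropeptide genes went the other way, with 20 of 26 above the control, against 48.3% of all genes. Their median was 0.14 (0.08 to 0.15 under the alternatives), and none passed 1.5-fold. Of 25 with a span on record 6 lie among the 25% of genes with the longest span, a smaller share than in the neuronal lists above. The part of gene span in this contrast was not tested. Trissin read 341, 453 and 342 (0.41), neuropeptide F (NPF) 622, 822 and 777 (0.40), the insulin-like peptide gene Ilp5 1632, 2100.0 and 3129 (0.36) and CCHa2 2633, 3249 and 2567 (0.30). The prohormone convertase gene amon stood at 0.27. Pdf, the peptide of the clock neurons, was lower with 1101, 876 and 1321 (-0.33). Of 15 clock genes 5 were above the control and 10 below. Pdp1 read 4227, 2725 and 5532 (-0.63), timeless (tim) 4503, 3341 and 4593 (-0.43) and cwo 2279, 1744 and 2721 (-0.39), whereas period (per) stood at -0.01. A dimmer probe set had -0.26 for tim but 0.25 for cwo. The highest were Usp8, a ubiquitin protease gene, with 917, 1338 and 1164 (0.55), the phosphatase subunit gene tws at 0.10 and cryptochrome (cry) at 0.03. Pdp1 alone passed 1.5-fold; the median of the 15 was -0.05, and -0.17 in the upper 25% by signal.

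Glial genes were below the control in 13 of 16, with 3 past 1.5-fold lower, against 51.7% and 1.44% of all genes, and a median of -0.14 (-0.21 to -0.09 under the alternatives). ebony (e), which couples beta-alanine to dopamine and histamine in glia and cuticle, read 800.3, 360.2 and 291 (-1.15). prospero (pros), a transcription factor of some glia and neurons, read 951, 510.4 and 983 (-0.90), and the astrocyte gene alrm 1464, 909.6 and 875 (-0.69). Both PKA arrays were low for e and alrm, only PKA-DN for pros. The astrocyte transporter Gat, described above, and loco at -0.39 were lower as well, but repo stood at -0.11, Gs2 at -0.11 and the blood-brain barrier receptor gene moody at 0.08. The summed signal of the 16 genes was 39590.2 on the control array and 36623 on PKA-DN.

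In the eye, photoreceptor genes were spread around the control, with 13 of 24 above it and a median of 0.0034, or -0.05 with a gene's probe sets averaged. The lens cuticle gene Cpr72Ec read 4862, 3199.8 and 2383 (-0.60), the lipid kinase gene rdgA 1822, 1331 and 1633 (-0.45) and the pigment cell dehydrogenase gene Pdh 26033, 19586 and 18794 (-0.41). For rdgA, 3 dimmer probe sets had -0.04, 0.27 and -0.15. On the higher side ninaG and laza stood at 0.38 and 0.34, and the channel gene trpl read 8344, 10510.1 and 9659 (0.33). Eye pigment genes ranged from rosy (ry) at -0.40 to sepia (se) with 802, 1163 and 846 (0.54), and their median of 0.03 was -0.02 over genes with both arrays above the highest negative control.

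Odorant-binding proteins carry odorants and other small ligands. Of 48 with a probe set 18 were compared, 3 of them 1.5-fold or more higher, against 1.49% of all genes, and none 1.5-fold lower, with a median of 0.02. Obp99a read 1288, 2928 and 3934 (1.18), Obp8a 209.8, 383 and 253 (0.87) and Obp56h 1125, 1813 and 1615 (0.69). Obp56e and Obp19b were the lowest at -0.37 and -0.35. Receptors of smell and taste were mostly under the background. None of 57 odorant receptor and none of 56 gustatory receptor genes was compared, and 49 and 54 of them were at or below the highest negative control on both arrays. The ionotropic receptor gene Ir76a was the only one of 53 compared, with 439, 691 and 701 (0.66).

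Muscle genes were above the control in 15 of 21, against 48.3% of all genes, with a median of 0.19. By 1.5-fold or more 3 were higher and 1 lower, against 1.49% and 1.44% of all genes. The actin gene Act87E read 978, 1657 and 1589 (0.76), paramyosin (Prm) 1469, 2286 and 2557 (0.64) with 0.57 in its other bright probe set, and the thick filament gene Myofilin (Mf) 6507, 8612 and 7699 (0.40). The muscle LIM gene Mlp60A read 2072, 4317 and 4127 (1.06), but 2 dimmer probe sets had -0.82 and -0.24. The troponin C gene TpnC41C was lower with 649.8, 376 and 687 (-0.79), and Act79B and Msp300 stood at -0.35 and -0.31. Dimmer probe sets of Msp300 above the highest negative control on both arrays ran from -0.24 to 0.60. The summed signal of the 21 was 52400 on the control array, 60815 on PKA-DN and 65183 on PKA-CA.

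Genes that differ between the sexes were compared because the sources used here do not give the sex of the flies. The yolk protein genes Yp1, Yp2 and Yp3, made by female fat body, read 32066, 26287 and 21821, then 33382, 27940.2 and 24308, and 31774, 25363 and 19322, with ratios of -0.29, -0.26 and -0.33. With fit, a female-enriched satiety gene, at 0.19 the median of -0.27 was -0.02 under quantile normalization. The dosage compensation genes msl-1, msl-2 and mle stood at -0.06, -0.24 and -0.69, the last with 1190.3, 739 and 1039.6. They are not taken here as markers of sex. Sxl read 995, 683 and 1082 (-0.54), doublesex (dsx) 532, 724 and 799.9 (0.45) and fruitless (fru) 632, 815 and 813 (0.37). Dimmer probe sets above the highest negative control on both arrays went the other way, with -0.30 for dsx and -0.17 and -0.10 for fru. Male reproductive genes were under the background, with 28 of 30 at or below the highest negative control on both arrays.

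Several surface and secreted families held single members past 1.5-fold. Tetraspanins were below the control in 12 of 18, against 51.7% of all genes, with a median of -0.14 (-0.15 to -0.05 under the alternatives). Their member late bloomer (lbm), known from synapse formation in fly embryos, read 400.4, 231 and 243 (-0.79) and Tsp42Eg 279, 453 and 438 (0.70). The sterol-binding family gene Npc2g read 14769, 9432 and 13407 (-0.65). Cuticle genes had a median of -0.0012 that turned positive, up to 0.03, under each scaling tried, with Cpr49Ag at 1052, 1743 and 1487 (0.73). The chitin deacetylase gene serp read 292, 454 and 347 (0.64) and yellow-b 309.6, 492 and 379.6 (0.67).

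Genes of housekeeping complexes had smaller standard deviations than the 0.252 over all compared genes. These ran from 0.10 for cytosolic ribosomal proteins to 0.20 for mitochondrial ribosomal proteins. Whether these genes are steadily expressed was not tested. Among 53 respiratory chain genes none passed 1.5-fold, the standard deviation was 0.10 and the median was -0.01. Among 70 mitochondrial ribosomal protein genes the median was 0.02, and mRpS28 alone passed 1.5-fold, with 713, 1277 and 728 (0.84). Translation factors (35 genes), proteasome subunits (26) and proton pump subunits (18) had medians of 0.04, -0.08 and 0.07 with none past 1.5-fold. Cytosolic ribosomal proteins were below the control in 26 of 29, with a median of -0.11 that was 0 under quantile normalization. Heat shock genes, relevant to the shift to 32 °C that all flies received, had a median of -0.04 over 22, with Hsp26 1.5-fold lower at 6262, 4106 and 4460.4 (-0.61) and Hsp68 at 1780.1, 1232 and 1674 (-0.53).

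**Figure D5:**
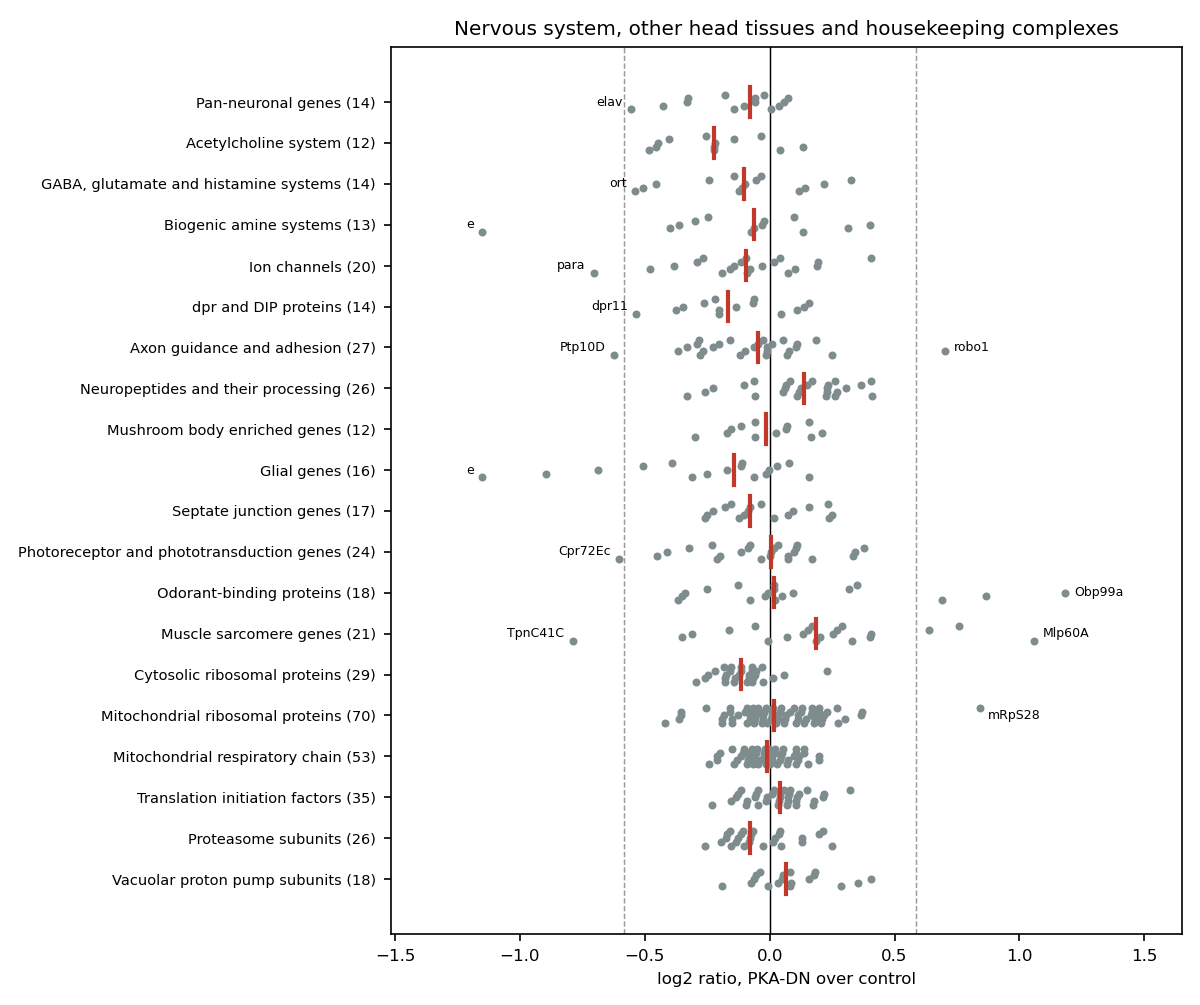
Log2 ratios of PKA-DN over control for lists of the nervous system, other head tissues and housekeeping complexes, with 1 grey point per compared gene (number in brackets), the list median as a red bar and dashed lines at 1.5-fold; points are offset vertically for legibility. The acetylcholine median sits at -0.22 and the neuropeptide median at 0.14, while respiratory chain genes lie within a narrow band.

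Genes outside the upper 50% were given only as bounds, where 1 array lay at or below its highest negative control and the other at least 3-fold above that floor. Of 5991 such genes 3 were higher in PKA-DN and 3 lower. The methuselah-like receptor gene mthl6 read 28.5, 960.3 and 49.4, at least 12.5-fold higher, CG5246 22.4, 560.2 and 43.6, at least 7.27-fold higher, and CG11893 41.2, 481 and 380, at least 6.24-fold higher. In mthl6 and CG5246 the PKA-CA signal was at background as well. CG4650 read 374, 0.949 and 67.9, at least 4.80-fold lower in PKA-DN, mah 260.2, 61.5 and 76.1, at least 3.35-fold lower, and the P450 gene Cyp6a17 241, 26.2 and 711, at least 3.10-fold lower. For Cyp6a17 the PKA-CA signal was the highest of the 3.

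Between these and the compared genes are dim genes above the highest negative control on both arrays. Among 1552 of them 4.57% were 1.5-fold or more higher and 4.57% lower, wider than in the compared genes. Of 159 on a list 15 were 1.5-fold or more higher and 11 lower. The widest, besides sand and Ca-alpha1T, were the cell adhesion gene Dscam4 with 276, 112 and 215 (-1.29) and eater (-1.15) on the lower side. On the higher side Obp99d read 103, 275 and 74.0 (1.42), the chitin deacetylase gene verm 92.2, 239.5 and 156 (1.38), and Edg91, of the cuticle list, 134, 337 and 149.9 (1.33). In Obp99d the PKA-CA signal was below the control.

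Neighbours in the genome of the genes past 2-fold were compared with them. Within 3 protein-coding genes on either side, 90 pairs could be compared, and 6 (6.67%) had the neighbour past 1.5-fold the same way, where 1.49% of all compared genes were 1.5-fold higher and 1.44% lower. The adjacent peptide genes Drsl4 and Drsl5 count in both directions. CG8539 adjoins Cyp4d8, Zip102B adjoins Rnf11 (0.68), and LKRSDH and Def lie close to Brd7-9 (0.62) and sel (0.62). Pepck2 and its near neighbour Pepck1 had ratios of opposite sign, as did Cyp6a8 and Cyp6a21 at -0.11, and PPO2 and its neighbours Ance-4 and CG13743 (-0.15 and -0.03) differed widely in size.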

How the data were processed

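RNA of whole heads was hybridised to 1 array for each of 3 genotypes. Each deposited value is a linear intensity of 1 probe set. Per the submitters' processing notes it came from MAS5, with version and settings not given in the sources used here. They were scaled to a common trimmed mean before deposit and taken as they are, in log2 without a pseudocount. Detection calls were not used, and having 1 array a group limits precision throughout.

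Gene names came from a table of the platform: 13647 had 1 symbol, 402 had several, and 4903 were not listed and are unnamed here. RefSeq gene identifiers (assembly Release 6 plus ISO1 MT) updated 13544 symbols, and 103 were kept as listed. For the 1094 genes with several probe sets the brightest by mean log2 signal on the 3 arrays was taken, and genes in the upper 50% by that mean, 253.6 or more, were compared. Of 100 negative controls 99 served, as 1 read above 1000.

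The 71 gene lists, of which 65 had 3 or more genes compared, and the members of the comparison were chosen with earlier results of these data known. The genes named are the 15 highest and 15 lowest ratios, all 57 list members past 1.5-fold and the PKA subunits compared. Dim genes with bounds and neighbours of genes past 2-fold are named as well. Of the 3 highest and 3 lowest of each list, 310 genes lie within 1.5-fold (-0.58 to 0.55). The text names only some of these, a departure from the rule set for naming. Many others are covered by the counts or median of their list, but not every list is described. Autophagy genes (20 compared, median 0.02) and septate junction genes (17 compared, median -0.08) had none past 1.5-fold. Of 14 head fat body and storage genes 6 were above the control, with a median of -0.04. Other members are named for their role, chosen after values were seen. Bounds use the highest negative control as the floor. The calculation was tested on simulated data. Alternatives were quantile normalization, cyclic loess, centring, 64 added to each signal, other signal filters and other choices of probe set. Python 3.11.15, pandas 2.3.3, R 4.3.3 and limma 3.58.1 were used.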

Additional observations from a re-analysis of the deposited data

Results flagged for a closer look

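Probe sets without a single gene name carried some of the widest differences. Of 847 bright enough to compare, 10 (1.18%) were higher in PKA-DN by 2-fold or more and 5 (0.590%) lower. Probe set 1627551_s_at read 201 on the control array, 4227 on PKA-DN and 416 on PKA-CA, 21.1-fold higher in PKA-DN, and 1625124_at read 129, 2039 and 127 in the same order, 15.9-fold higher. In both, the PKA-DN array alone was high. 1624819_s_at read 431, 4198 and 9406 and 1624543_s_at 336, 2189 and 4390, so here PKA-CA was higher still. 1629530_at read 633, 2521 and 515, with a log2 ratio of 1.99. On the lower side 1631321_s_at read 646, 147 and 289 (log2 ratio -2.13) and 1635549_at 16319, 6462 and 13195 (-1.34).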

How the results depend on the processing

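Under the 4 scalings of the arrays, 19 genes were higher in PKA-DN by 2-fold or more and 15 to 16 lower, against 19 and 17 as reported. The counts of higher and lower genes were 871 and 845 with no signal filter, where dim probe sets enter, 10 and 8 in the upper 25% by signal, and 30 and 34 with the probe sets of each gene averaged, which also takes in dim probe sets. With both arrays above their highest negative control 31 were higher and 24 lower, and at a 1.5-fold threshold 89 and 86 passed. Of 65 list medians 49 kept their sign under all 10 alternatives and 16 did not. The median of activity-regulated genes was -0.085 with probe sets averaged, that of yolk protein genes and fit -0.0245 and -0.0294 under quantile normalization of 3 and of 2 arrays, that of sex-enriched head genes -0.15 both in the upper 25% and averaged, and that of UDP-glycosyltransferases 0.15 in the upper 25% and 0.14 with both arrays above background. The cause was not tested. Averaging gave Mlp60A -0.0024, the only sign change among 93 genes past 1.5-fold. For other named genes whose sign turned, apart from Arc1 and genes near the control, the average takes in probe sets at or below background. No paired analysis was possible because each group has 1 array. Signals near the negative controls, up to 77.8, limit what dim genes can show.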
